A study of Antirrhinum majus with 21 samples.

Results

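The comparison joined 3 snapdragon (Antirrhinum majus) corollas of genotype ROSpse_ELstr with 3 of genotype ROSpse_elpse, 6 of the 21 libraries of the series, chosen by their labelled alleles alone. ROSpse_ELstr plants, labelled eluta, carried the dominant allele of ROSEA (ROS) from the wild A. m. pseudomajus and the dominant allele of ELUTA (EL) from the wild A. m. striatum. ROSpse_elpse plants, labelled magenta, carried the same dominant ROS allele and the recessive el allele of pseudomajus. Both groups therefore had a dominant pseudomajus ROS allele, and their labels differ at EL. The labels give 1 allele for each locus and no zygosity, so the second copy of ROS and of EL in each plant is not given in the sources used here.

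ROS and EL are linked flower colour loci of snapdragon. ROS holds MYB transcription factor genes that switch on the enzymes of anthocyanin synthesis, the pathway of the magenta petal pigment. Dominant EL alleles restrict that pigment to parts of the corolla face, which gives the eluta pattern, and recessive el alleles let it spread over the petal lobes.

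Each library was made from the corolla of a single bud 5 to 10 mm long, at stage 12 to 13. Every bud came from a separate plant grown on outside benches. The p-values thus measure the spread between plants of a genotype, together with anything else that differs between their libraries. That includes the library number series described below and, in the genotype rosdor_eldor, plant family, for which the main fit has no term. All 3 ROSpse_ELstr plants came from plant family A174 and all 3 ROSpse_elpse plants from family A181, so within these libraries genotype and family cannot be told apart. The other 15 libraries entered the estimate of the spread and served as side comparisons, with 3 plants each. ROSji7_ELstr (eluta, family A172) and ROSji7_elji7 (magenta, family A183) carried the dominant ROS allele of the stock line JI7, with the dominant striatum EL allele in the first and the recessive JI7 el allele in the second. The white genotype rosstr_ELstr (family A182) carried the recessive ros and dominant EL alleles of striatum. The pale genotype rosrec_elpse (family A177) had a ros allele recombined between striatum upstream and pseudomajus downstream, with the recessive pseudomajus el allele. The white genotype rosdor_eldor carried recessive alleles of the stock line rosea-dorsea at both loci, and its 3 plants came from families A174, A181 and A182. The files give gene IDs without names, so pigment pathway genes and markers of corolla, stamen or leaf cells could not be matched, and the labelled tissue was not checked against markers.

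Totals were 17764056, 26026213 and 26452576 estimated reads in the 3 ROSpse_ELstr libraries, against 23051496, 23146140 and 31579550 in the 3 ROSpse_elpse libraries. Replicates correlated across genes at a Spearman's rho of 0.958 to 0.978. On the first principal component of the 6 libraries, which held 41.8% of their variance, the ROSpse_ELstr plants lay at 41.61, 89.96 and 63.84 and the ROSpse_elpse plants at -70.18, -63.72 and -61.52. The second component held 27.1% and set replicate 1 of each genotype, at 90.87 in ROSpse_ELstr and 57.72 in ROSpse_elpse, apart from the other 4 libraries, at -46.19 to -25.64. Both of those libraries carry numbers of a low series, while replicates 2 and 3 of each genotype are of a middle series. What the series of numbers stands for is not given in the sources used here.

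Of 24674 genes tested, 695 were called, 340 higher in ROSpse_ELstr and 355 lower, which is 2.82% of tested genes, with 1.38% higher and 1.44% lower (edgeR quasi-likelihood test, Benjamini-Hochberg adjusted p under 0.05). The median log2 fold change of ROSpse_ELstr over ROSpse_elpse was 1.34 among the genes called higher, with quartiles of 0.92 and 2.73. Among the genes called lower it was -1.85, with quartiles of -3.43 and -1.12. Over all tested genes the median was 0.00 and the median absolute change 0.29. More than 2-fold differences numbered 238 higher and 285 lower, and more than 16-fold differences 47 higher and 69 lower. In these bulk corollas, fewer cells of a type and less RNA per cell cannot be told apart. The libraries of both genotypes did not overlap for 686 of the 695 called genes, and for 23.4% of all tested genes. Differences ran in both directions in near equal number.

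A fit with 1 plant fewer can detect less, and the number of calls changed with the plant left out. It dropped to 162 when ROSpse_ELstr replicate 2 was left out and to 232 when ROSpse_elpse replicate 2 was. It was 398 and 513 when ROSpse_ELstr replicate 3 or 1 was left out, and 384 and 460 for ROSpse_elpse replicate 3 or 1. Without both libraries of the low series, in a fit to the middle series alone, 178 genes were called and 124 of them were among the 695. A total of 139 genes, 61 higher and 78 lower, were called whichever of the 6 libraries was left out.

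**Figure D1:**
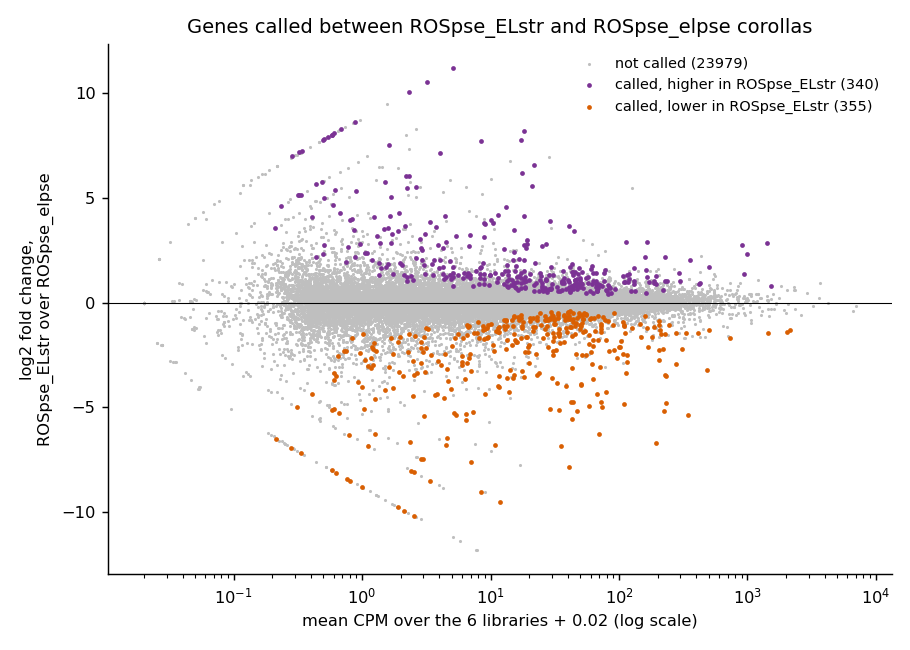
Mean level of each tested gene over the 6 libraries (x axis, CPM plus 0.02, log scale) against its log2 fold change in ROSpse_ELstr over ROSpse_elpse (y axis). Purple points are the 340 genes called higher, orange points the 355 called lower and grey points the genes not called. The median log2 fold change is 1.34 in the purple points and -1.85 in the orange points.

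The first question is what happened at the colour loci themselves. One sequence of the JICv1 assembly is named ros_assembly, and 80 of its genes were tested. Of these, 3 were called, or 3.75%, close to the 2.82% of all tested genes. The median log2 fold change over the 80 genes was 0.08, with 46 above and 33 below 0, and unadjusted p-values under 0.05 were found for 16.2% of them, against 15.6% of all tested genes. All 3 called genes were higher in ROSpse_ELstr.

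AnMG0005867200 (ros_assembly 15179 to 16002, minus strand) had 64.6, 55.0 and 64.2 CPM in ROSpse_ELstr, against 29.0, 30.3 and 28.5 CPM in ROSpse_elpse. The genotypes were well separated and the ROSpse_elpse plants nearly equal, at a log2 fold change of 1.06 ± 0.21 (SE; adjusted p by edgeR 0.0108). AnMG0000153400 (838734 to 841373, minus strand) had 52.6, 75.8 and 78.0 CPM in ROSpse_ELstr, against 23.8, 28.6 and 28.8 CPM in ROSpse_elpse. Again every ROSpse_ELstr plant exceeded every ROSpse_elpse plant, at a log2 fold change of 1.35 ± 0.30 (SE; adjusted p by edgeR 0.0213). AnMG0005869000 (53672 to 58009, minus strand) had 8.90, 21.2 and 26.4 CPM in ROSpse_ELstr, against 0.516, 0.167 and 2.89 CPM in ROSpse_elpse. Both groups were spread widely without overlap, at a log2 fold change of 3.92 ± 0.97 (SE; adjusted p by edgeR 0.0386). The adjusted p of AnMG0000153400 was 0.0585 to 0.0947 without any one library but ROSpse_ELstr replicate 1. For AnMG0005869000 it was 0.113 and 0.0920 when ROSpse_ELstr replicate 2 or 3 was left out, and 0.122 and 0.159 for ROSpse_elpse replicate 1 or 2.

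A further pair of ros_assembly genes is described because earlier results of these data single them out. AnMG0000144700 (541660 to 544383, plus strand) averaged 2.08 CPM in rosstr_ELstr and 0.896 CPM in rosdor_eldor, both with recessive ros. It had 58.7, 29.7 and 32.7 CPM in ROSpse_ELstr, against 49.1, 22.0 and 12.5 CPM in ROSpse_elpse. The genotypes overlapped, and replicate 1 was the highest plant in each. The log2 fold change was 0.54 ± 0.69 (SE; edgeR adjusted p 0.819), so no difference beyond the spread between plants was detected.

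AnMG0000140810 (714682 to 716427, minus strand) had 24.3, 12.7 and 17.4 CPM in ROSpse_ELstr, against 7.51, 3.85 and 2.30 CPM in ROSpse_elpse. Every ROSpse_ELstr plant was above every ROSpse_elpse plant, yet the gene missed the threshold, at a log2 fold change of 2.0 ± 0.56 (SE; adjusted p by edgeR 0.0689). Only DESeq2, which called 1532 genes against 695 with edgeR, called it (DESeq2 adjusted p 0.00444). Of 14 alternatives, 11 left the gene uncalled in the same direction, and 2, the fits with plant family, turned its direction. In the rosdor_eldor plants on which those fits rest, the gene had fewer than 3 reads in A181 (0.126 CPM). With the JI7 ROS allele its mean was 16.4 ± 3.69 CPM in ROSji7_ELstr and 4.36 ± 2.91 CPM in ROSji7_elji7 (SD, n = 3), with a log2 effect of 1.91 ± 0.56 (SE; adjusted p by edgeR 0.190). Per transcript length, its mean was 54.9 TPM in ROSpse_ELstr and 13.2 TPM in ROSpse_elpse, while AnMG0000144700 had 49.0 TPM in ROSpse_ELstr and 33.6 TPM in ROSpse_elpse.

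AnMG0000140810 belongs to a small set in which the libraries with the striatum EL allele, whatever their ROS allele, lie apart from all others. The labels name only the EL allele, and the part of other striatum sequence carried with it was not tested. In 10 of the 24674 tested genes (0.0405%), the 9 libraries with the striatum EL allele did not overlap the 12 libraries with any other allele, 8 of them higher and 2 lower in ELstr. The rule for this set was chosen after the values were seen. Only 7 of the 695 called genes (1.01%) belong to it, so most of the genes that set ROSpse_ELstr apart from ROSpse_elpse did not follow the EL allele across the other genotypes. Of the 10 genes, 7 lie on scaffold1195, 1 on ros_assembly, 1 on scaffold14 and 1 on scaffold713.

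On scaffold1195 the set forms clusters. AnMG0000146210, AnMG0000146410 and AnMG0000146610 lie within 198276 to 211732, all on the minus strand. AnMG0000146610 had 9.94, 4.72 and 7.01 CPM in ROSpse_ELstr, against 1.03, 1.42 and 1.12 CPM in ROSpse_elpse. The genotypes were apart, at a log2 fold change of 2.60 ± 0.50 (SE; adjusted p by edgeR 0.0132), and over the series the range was 4.72 to 10.4 CPM in the 9 ELstr libraries and 0 to 1.42 CPM in the other 12. AnMG0000146410 had 1.66, 0.831 and 0.620 CPM in ROSpse_ELstr, against 0 in all 3 ROSpse_elpse libraries, at least 24.3-fold higher against a floor of 3 reads over the group (edgeR adjusted p 0.00320). Its neighbour AnMG0000146210 was low and not called, with 2.46, 0.567 and 0.839 CPM in ROSpse_ELstr, against 0.188, 0.460 and 0.186 CPM in ROSpse_elpse (edgeR adjusted p 0.296). The adjusted p of AnMG0000146610 was 0.0501, 0.0514 and 0.0536 without ROSpse_elpse replicates 1, 2 and 3.

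Farther along the sequence, AnMG0001020200 and AnMG0001020400 lie side by side at 1109323 to 1113090 on the minus strand. AnMG0001020400 had 20.6, 30.2 and 32.8 CPM in ROSpse_ELstr, against 1.64, 2.89 and 3.13 CPM in ROSpse_elpse. It rose at a log2 fold change of 3.44 ± 0.54 (SE; adjusted p by edgeR 0.00384), and nearly all its reads were assigned to 1 of its 3 transcripts. With JI7 ROS the contrast was wider, at 37.5 ± 0.804 CPM in ROSji7_ELstr and 0.116 ± 0.0711 CPM in ROSji7_elji7 (SD, n = 3), and the difference between both EL effects was -4.85 ± 0.84 on the log2 scale (SE; edgeR adjusted p 0.0167). That adjusted p was 0.0517 without ROSji7_ELstr replicate 2 and 0.0538 without ROSpse_ELstr replicate 2. AnMG0001020200 had 2.82, 2.91 and 3.94 CPM in ROSpse_ELstr, against 0, 0.293 and 0 CPM in ROSpse_elpse (log2 fold change 5.03 ± 0.99, SE; edgeR adjusted p 0.0180, and 0.0593 without ROSpse_ELstr replicate 2). Each of these genes overlaps another gene on the same strand, so how reads were divided among them is uncertain.

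Outside scaffold1195, 2 genes of the set rose. AnMG0001841800 (scaffold14 225526 to 226574, plus strand) had 8.66, 6.95 and 8.18 CPM in ROSpse_ELstr, against 0.0938, 0.0418 and 0.0310 CPM in ROSpse_elpse. It had the smallest adjusted p of all increases, at a log2 fold change of 7.12 ± 0.76 (SE; adjusted p by edgeR 0.00117) on 4 reads in all in ROSpse_elpse. AnMG0001842000 (scaffold713 580408 to 581636, plus strand) had 51.3, 38.8 and 33.0 CPM in ROSpse_ELstr, against 0.938, 1.09 and 0.590 CPM in ROSpse_elpse (log2 fold change 5.56 ± 0.67, SE; edgeR adjusted p 0.00180). Both also rose with JI7 ROS, by 5.69 ± 0.69 and 4.93 ± 0.64 on the log2 scale (SE; edgeR adjusted p 0.00127 and 0.00227), and each shares its strand with an overlapping gene. They remained called without any one library of either comparison.

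Decreases in the set were small or rested on few reads. AnMG0001021200 (scaffold1195 1139372 to 1139787, minus strand) was at 0 in all 3 ROSpse_ELstr libraries, against 0.891, 0.502 and 0.497 CPM in ROSpse_elpse, at least 14.2-fold lower (edgeR adjusted p 0.0203; 0.0935, 0.0621 and 0.0516 without ROSpse_ELstr replicates 2 and 3 and ROSpse_elpse replicate 2). AnMG0001015300 (scaffold1195 960493 to 967145, plus strand) had 25.8, 23.2 and 27.0 CPM in ROSpse_ELstr, against 32.1, 29.5 and 29.1 CPM in ROSpse_elpse. The gap was narrow and the gene was not called (log2 fold change -0.25 ± 0.13, SE; edgeR adjusted p 0.388).

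**Figure D2:**
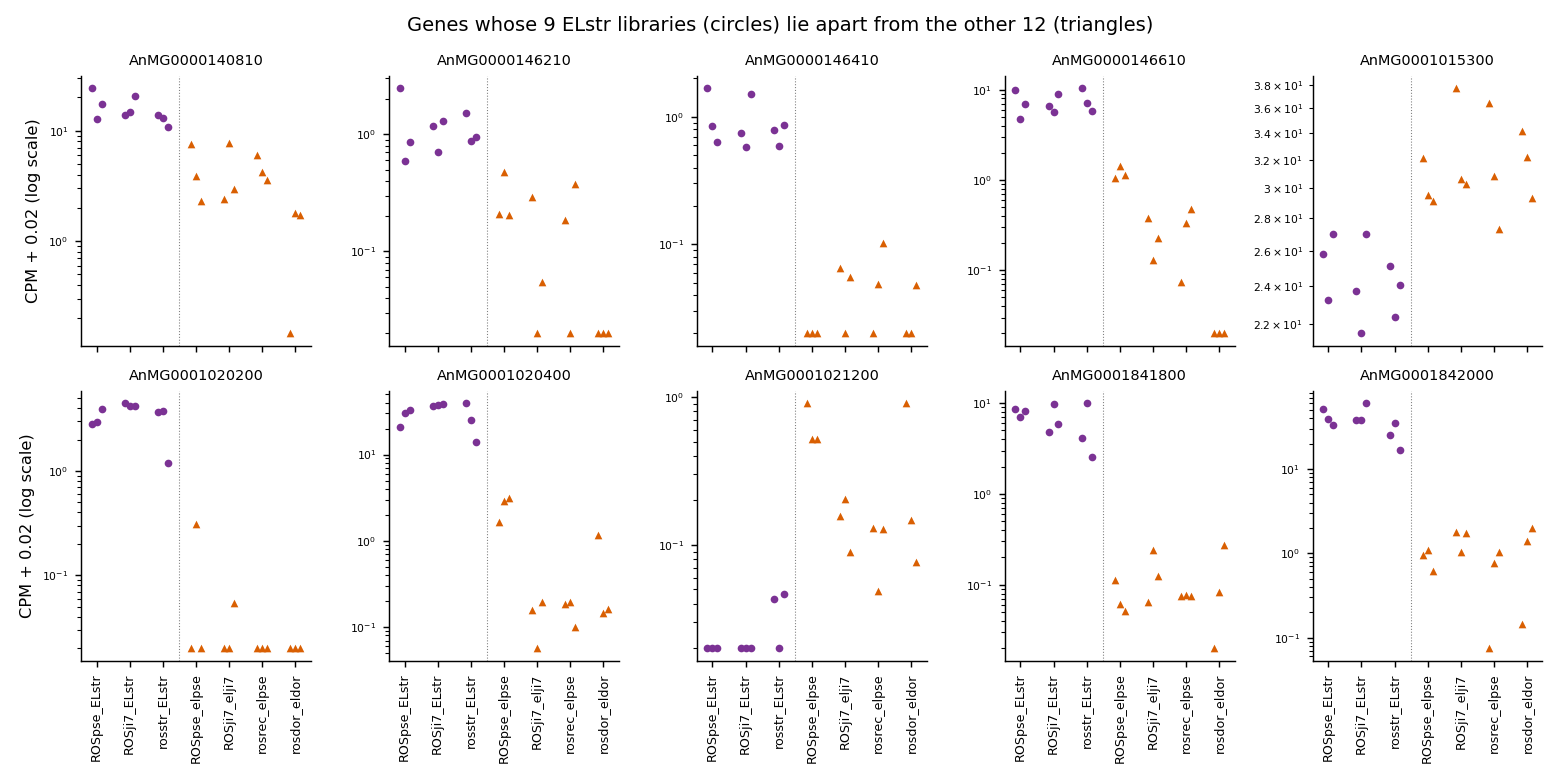
CPM plus 0.02 (y axis, log scale, its own range in each panel) in each of the 21 libraries, by genotype (x axis), for the 10 genes in which the 9 libraries with the striatum EL allele (purple circles, left of the dotted line) do not overlap the other 12 (orange triangles). AnMG0001020400 is 14.0 to 39.5 CPM in the ELstr libraries and 0.0368 to 3.13 CPM in the other libraries.

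The largest fitted increases were of genes read in ROSpse_ELstr and absent or nearly absent from the ROSpse_elpse libraries. AnMG0907197600 (scaffold527 240073 to 240471, minus strand) had 7.12, 10.9 and 12.3 CPM in ROSpse_ELstr, against 0 in all 3 ROSpse_elpse libraries. It was at least 273-fold higher against a floor of 3 reads over the group (edgeR adjusted p 0.0220). AnMG0006820300 (scaffold50 625088 to 628158, plus strand) had 4.17, 7.60 and 7.37 CPM in ROSpse_ELstr and 0 in all 3 ROSpse_elpse libraries, at least 173-fold higher (edgeR adjusted p 0.0321). Here too the plants of each genotype lay close together. AnMG0507276300 (scaffold2105 29749 to 43910, minus strand) was uneven, with 0.307, 5.74 and 7.81 CPM in ROSpse_ELstr and 0 in all 3 ROSpse_elpse libraries, at least 137-fold higher over the group (edgeR adjusted p 0.0167). AnMG0004185110 (scaffold944) and AnMG0007687000 (scaffold268) were lower, at 1.71 ± 0.368 and 1.32 ± 0.755 CPM in ROSpse_ELstr (SD, n = 3) and 0 in ROSpse_elpse, at least 43.8-fold and 36.8-fold higher (edgeR adjusted p 0.0368 and 0.0269).

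AnMG0003285300 (scaffold383 247114 to 247850, minus strand) had 88.9, 8.39 and 12.4 CPM in ROSpse_ELstr, against 0.422, 0 and 0 CPM in ROSpse_elpse. Replicate 1 was the highest plant of each genotype, and the groups did not overlap (log2 fold change 8.16 ± 1.70, SE; edgeR adjusted p 0.0162). Like AnMG0507276300, it has a same-strand gene that overlaps it. In ROSji7_ELstr and ROSji7_elji7, AnMG0003285300 was nearly level, at 7.92 ± 4.40 and 7.64 ± 5.43 CPM (SD, n = 3).

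Most of these increases were lost with 1 plant fewer. AnMG0004185110 was no longer called without any one of the 6 libraries, at an adjusted p of 0.0641 to 0.126, nor was AnMG0006820300, at 0.0511 to 0.115. AnMG0907197600 and AnMG0007687000 were lost without any one library but ROSpse_ELstr replicate 1, at 0.0510 to 0.0840 and 0.0553 to 0.0970. AnMG0507276300 was lost without ROSpse_ELstr replicate 2 (0.0582) and ROSpse_elpse replicates 2 and 3 (0.0684 and 0.0575), and AnMG0003285300 without ROSpse_elpse replicates 2 and 3 (0.0889 and 0.0702). In all of these fits the direction was the same.

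The largest fitted decreases had the same on and off form. AnMG0207956200 (scaffold663 217406 to 221243, minus strand) had 0, 0 and 0.0730 CPM in ROSpse_ELstr, against 17.8, 26.1 and 27.2 CPM in ROSpse_elpse. With 2 reads in all in ROSpse_ELstr, it was 852-fold lower, with a counting interval of 235 to 7039 (95%; edgeR adjusted p 0.0111). AnMG0001848300 (scaffold228 45325 to 48091, plus strand) had 0, 0.0378 and 0.0365 CPM in ROSpse_ELstr, against 16.1, 19.3 and 15.3 CPM in ROSpse_elpse. It was 587-fold lower, with a counting interval of 162 to 4855 (95%; edgeR adjusted p 0.0432). Both genes had 2 transcripts, and both transcripts were read in ROSpse_elpse and at or near 0 in ROSpse_ELstr.

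The other decreases of this kind were at 0 in every ROSpse_ELstr library. AnMG0000590910 (scaffold874) had 5.63, 5.48 and 4.07 CPM in ROSpse_elpse, at least 115-fold lower in ROSpse_ELstr (edgeR adjusted p 0.0198). AnMG0706802900 (scaffold180) had 3.57, 4.47 and 4.59 CPM in ROSpse_elpse, at least 99.9-fold lower in ROSpse_ELstr (edgeR adjusted p 0.0302). AnMG0003410500 (scaffold266) varied between ROSpse_elpse plants, at 2.11, 8.15 and 0.993 CPM, and was at least 82.1-fold lower in ROSpse_ELstr (edgeR adjusted p 0.0111). For AnMG0006039410 (scaffold454), with 2.30, 1.88 and 1.71 CPM in ROSpse_elpse, it was at least 45.0-fold lower in ROSpse_ELstr (edgeR adjusted p 0.00843). AnMG0003410500 and AnMG0006039410 averaged at most 0.0188 and 0.0331 CPM in every other genotype. They passed the filter on low counts only through the 3 ROSpse_elpse libraries, so these values are a description and their adjusted p-values give no support. AnMG0000590910, AnMG0706802900 and AnMG0006039410 overlap other genes on the same strand.

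Of these decreases, AnMG0001848300 and AnMG0706802900 lost their call without any one of the 6 libraries, at an adjusted p of 0.0677 to 0.185 and of 0.0501 to 0.129. AnMG0000590910 was lost without ROSpse_ELstr replicates 2 and 3 (0.0956 and 0.0628) and ROSpse_elpse replicate 2 (0.0519), and AnMG0207956200 without ROSpse_ELstr replicates 2 and 3 (0.0746 and 0.0507). AnMG0003410500 was lost without ROSpse_ELstr replicate 2 (0.0568). Without any one ROSpse_elpse library, AnMG0003410500 and AnMG0006039410 fell under the filter on low counts and were not tested.

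Highly expressed genes changed too, by smaller folds. AnMG0006051800 (scaffold1376 667814 to 669004, plus strand) had 2202, 2415 and 2806 CPM in ROSpse_ELstr, against 445, 327 and 254 CPM in ROSpse_elpse. The genotypes did not overlap for any of its 3 transcripts, with a log2 fold change for the gene of 2.85 ± 0.53 (SE; edgeR adjusted p 0.00847). AnMG0002964300 (scaffold663 698367 to 700826, minus strand) had 1291, 2231 and 1477 CPM in ROSpse_ELstr, against 369, 321 and 315 CPM in ROSpse_elpse. It rose at a log2 fold change of 2.31 ± 0.30 (SE; adjusted p by edgeR 0.00217), and both genes remained called without any one library.

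AnMG0001611200 (scaffold432) and AnMG0002156000 (scaffold92) rose less. AnMG0001611200 had 1839, 2199 and 1766 CPM in ROSpse_ELstr, against 979, 1203 and 1156 CPM in ROSpse_elpse (log2 fold change 0.80 ± 0.19, SE; edgeR adjusted p 0.0327). For AnMG0002156000 the values were 841, 1846 and 1349 CPM in ROSpse_ELstr, against 353, 554 and 667 CPM in ROSpse_elpse (log2 fold change 1.36 ± 0.35, SE; edgeR adjusted p 0.0439). In neither gene did the genotypes overlap, but AnMG0001611200 lost its call without any one of the 6 libraries (adjusted p 0.0564 to 0.185) and AnMG0002156000 without any one library but ROSpse_ELstr replicate 1 (0.0611 to 0.229). Per transcript length, AnMG0002156000 was the highest of these genes, at a mean of 6408 TPM in ROSpse_ELstr and 2070 TPM in ROSpse_elpse.

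Among the highly expressed genes that fell, AnMG0008687600 (scaffold1600 211425 to 214880, minus strand) had 1219, 1263 and 1278 CPM in ROSpse_ELstr, against 3116, 3043 and 3036 CPM in ROSpse_elpse. Plants of a genotype differed by little and the genotypes by more than 2-fold, at a log2 fold change of -1.29 ± 0.30 (SE; adjusted p by edgeR 0.0269). AnMG0004363300 (scaffold95 677392 to 680298, plus strand) had 991, 1199 and 1160 CPM in ROSpse_ELstr, against 3219, 3167 and 2465 CPM in ROSpse_elpse (log2 fold change -1.40 ± 0.30, SE; edgeR adjusted p 0.0183). AnMG0608202500 (scaffold1135) averaged 770 ± 178 CPM in ROSpse_ELstr and 2121 ± 286 CPM in ROSpse_elpse, and AnMG0707711200 (scaffold108) 348 ± 14.2 CPM in ROSpse_ELstr and 1124 ± 386 CPM in ROSpse_elpse (SD, n = 3; edgeR adjusted p 0.0171 and 0.0212). In ROSpse_elpse replicate 3, AnMG0707711200 stood at 681 CPM, against 1388 and 1303 CPM in the other plants of that genotype.

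All 4 of these decreases lost their call in fits with 1 plant fewer, which can also detect less. AnMG0008687600 was not called without any one of the 6 libraries (adjusted p 0.0599 to 0.111). AnMG0004363300 and AnMG0707711200 were lost without any one library but ROSpse_elpse replicate 3 (0.0509 to 0.0751 and 0.0629 to 0.0970), and AnMG0608202500 without ROSpse_ELstr replicates 1 and 2 (0.0619 and 0.0976) and ROSpse_elpse replicate 2 (0.0784). AnMG0004363300 overlaps a gene on the other strand and AnMG0608202500 one on the same strand.

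**Figure D3:**
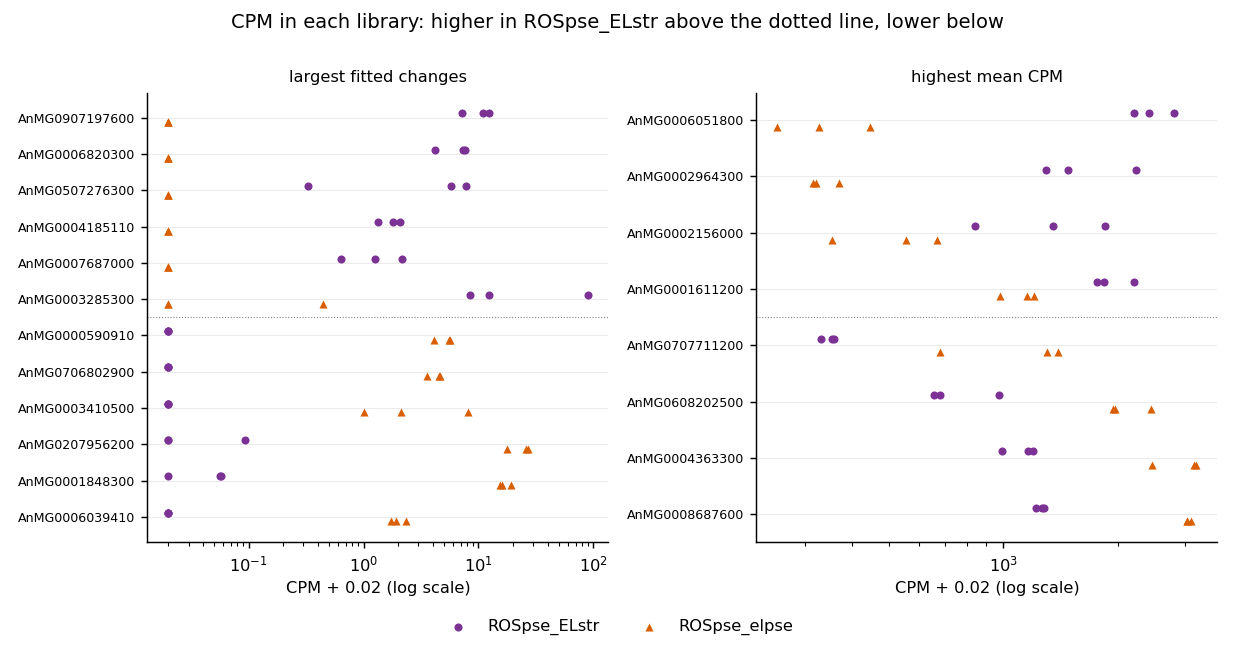
CPM plus 0.02 (x axis, log scale) in each library of ROSpse_ELstr (purple circles) and ROSpse_elpse (orange triangles), for the genes with the largest fitted changes (left panel) and the called genes with the highest mean CPM (right panel). Genes higher in ROSpse_ELstr are above the dotted line and genes lower are below it; AnMG0907197600 is 7.12 to 12.3 CPM in ROSpse_ELstr and 0 in ROSpse_elpse.

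The genes with the smallest adjusted p included decreases in which ROSpse_elpse stood above every other genotype. AnMG0006818900 (scaffold50 589611 to 592956, plus strand) had 0.552, 0.151 and 0.401 CPM in ROSpse_ELstr, against 32.0, 62.8 and 147 CPM in ROSpse_elpse. All ROSpse_elpse plants were high but unequal, at a log2 fold change of -7.82 ± 1.02 (SE; adjusted p by edgeR 0.00217). AnMG0001520400 (scaffold121 111657 to 113166, minus strand) had 2.09, 2.04 and 3.54 CPM in ROSpse_ELstr, against 52.7, 79.5 and 145 CPM in ROSpse_elpse (log2 fold change -5.16 ± 0.69, SE; edgeR adjusted p 0.00226). In both, ROSpse_elpse was also above the 5 other genotypes, whose means reached 16.1 CPM for AnMG0006818900 and 10.1 CPM for AnMG0001520400. AnMG0002429600 (scaffold793 6256 to 9690, minus strand) had 48.6, 26.4 and 33.0 CPM in ROSpse_ELstr, against 101, 139 and 128 CPM in ROSpse_elpse (log2 fold change -1.77 ± 0.23, SE; edgeR adjusted p 0.00217); its transcripts were placed on 2 sequences and overlap another gene on the same strand. AnMG0001014700 (scaffold1195 936554 to 940231, plus strand), one of the 3 increases with the smallest adjusted p, had 71.9, 61.1 and 53.5 CPM in ROSpse_ELstr, against 29.0, 25.0 and 20.5 CPM in ROSpse_elpse (log2 fold change 1.33 ± 0.16, SE; edgeR adjusted p 0.00180). These 4 genes remained called without any one library.

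Calls were unevenly spread over the assembly. They lay on 355 of the 1316 sequences with a tested gene. Among the 387 sequences with at least 20 tested genes, 171 held no call and 20 had at least 10% of their genes called, against 2.82% of all tested genes. Linked genes are not independent, so these shares are given as counts without a test.

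The highest share was on scaffold383, where 9 of 34 tested genes were called (26.5%), 8 of them higher in ROSpse_ELstr. AnMG0000378900 had the smallest adjusted p there, and 4 genes tied behind it at 0.00478, of which the 2 with the smaller unadjusted p are described. AnMG0000378900 (320431 to 322649, plus strand) had 2.82, 1.55 and 2.48 CPM in ROSpse_ELstr, against 0.0469, 0.251 and 0.0931 CPM in ROSpse_elpse (log2 fold change 4.09 ± 0.52, SE; edgeR adjusted p 0.00217). AnMG0001032000 (156929 to 160918, minus strand) had 27.4, 24.8 and 29.3 CPM in ROSpse_ELstr, against 15.6, 11.1 and 11.7 CPM in ROSpse_elpse (log2 fold change 1.09 ± 0.18, SE; edgeR adjusted p 0.00478). The gene that fell, AnMG0000377900 (303624 to 304943, plus strand), had 31.4, 38.3 and 50.2 CPM in ROSpse_ELstr, against 118, 113 and 83.5 CPM in ROSpse_elpse (log2 fold change -1.39 ± 0.23, SE; edgeR adjusted p 0.00478).

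Next came scaffold1195, with 24 of 118 tested genes called (20.3%), 16 higher and 8 lower in ROSpse_ELstr, between 203169 and 1323714. Those lower include AnMG0000686100, at 0.985, 1.13 and 1.24 CPM in ROSpse_elpse and 0 in all ROSpse_ELstr libraries. Its mean was at most 0.00930 CPM in every other genotype. This gene passed the filter on low counts only through the ROSpse_elpse libraries, so its adjusted p gives no support. How many other calls, here or elsewhere, passed the filter in this way was not counted. Besides the genes that followed the EL allele, AnMG0001016100 (980973 to 987174, plus strand) had 40.1, 35.2 and 29.5 CPM in ROSpse_ELstr, against 14.4, 13.8 and 15.2 CPM in ROSpse_elpse (log2 fold change 1.27 ± 0.16, SE; edgeR adjusted p 0.00192). AnMG0001025400 (1288179 to 1291344, minus strand) had 207, 251 and 271 CPM in ROSpse_ELstr, against 68.4, 88.2 and 93.0 CPM in ROSpse_elpse (log2 fold change 1.55 ± 0.21, SE; edgeR adjusted p 0.00226). The genotypes were separated in both genes, and AnMG0001025400 overlaps a gene on the other strand. In contrast, all 4 calls among the 21 tested genes of scaffold204 (19.0%) were lower in ROSpse_ELstr. AnMG0707241700 (192253 to 195136, minus strand) fell most there, with 0.552, 0.454 and 0.146 CPM in ROSpse_ELstr, against 15.9, 15.1 and 11.6 CPM in ROSpse_elpse (log2 fold change -5.23 ± 1.35, SE; edgeR adjusted p 0.0461).

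The named scaffold204 calls were lost in most fits with 1 plant fewer, and AnMG0706551010 shares its strand with an overlapping gene. AnMG0707241700 and AnMG0706552610 (10688 to 12108; log2 fold change -1.60 ± 0.39, SE; edgeR adjusted p 0.0345) were lost without any one of the 6 libraries, at an adjusted p of 0.0796 to 0.180 and of 0.0555 to 0.110. AnMG0706551010 (119014 to 123456; log2 fold change -1.10 ± 0.26, SE; edgeR adjusted p 0.0303) was lost without any one library but ROSpse_elpse replicate 1, at 0.0790 to 0.161. At an adjusted p under 0.01, 5 calls were left on scaffold383, 7 on scaffold1195 and 0 on scaffold204, against 0.681% of all tested genes. AnMG0000377900, AnMG0000378900, AnMG0001032000, AnMG0001016100 and AnMG0001025400 were called without any one library.

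Direction also differed between sequences with many calls. On scaffold1088, 17 of 18 called genes (of 112 tested, 16.1%) were higher in ROSpse_ELstr, with a median log2 fold change over the 18 of 1.33. On scaffold808 all 10 called genes of 92 tested were higher, with log2 fold changes of 1.10 to 4.13. On scaffold451 the 9 calls among 58 tested genes ran from -6.71 to 7.49.

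**Figure D4:**
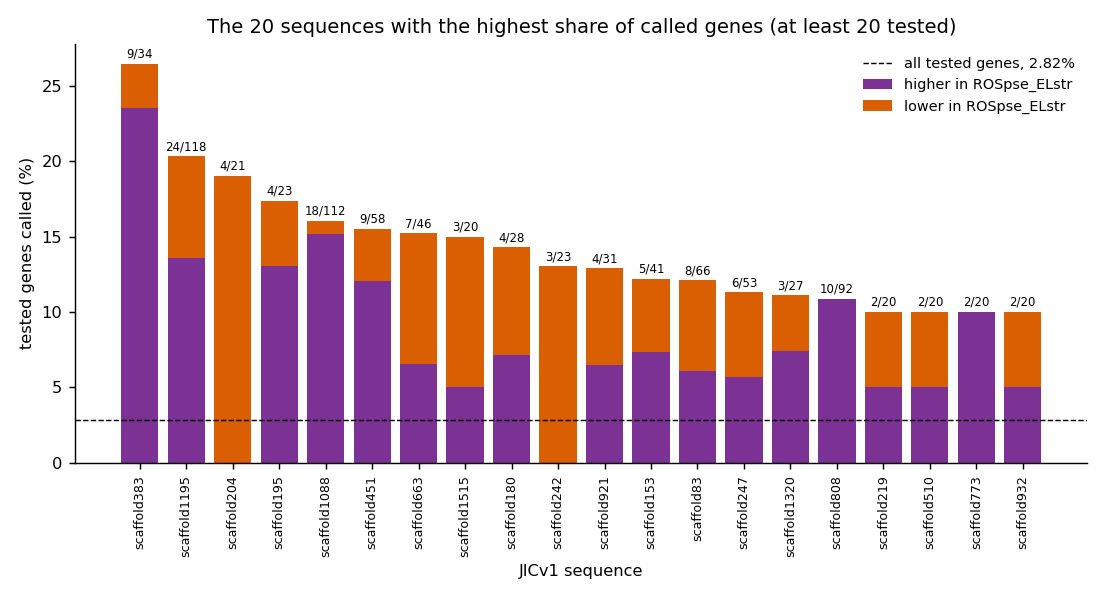
Share of tested genes called (y axis, %) on the 20 assembly sequences with the highest share (x axis), with genes higher in ROSpse_ELstr in purple and genes lower in orange; numbers above the bars are called over tested genes. All 20 bars stand above the dashed line of all tested genes at 2.82%, led by scaffold383 at 26.5%, scaffold1195 at 20.3% and scaffold204 at 19.0%.

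With the JI7 ROS allele, the striatum EL allele was set against the JI7 el allele in 6 other libraries that share none with the first. The recessive el allele and the plant families (A172 and A183) thus change together with the ROS allele, and their parts cannot be told apart. Between ROSji7_ELstr and ROSji7_elji7, 47 genes were called (0.190%), 24 higher (0.0973%) and 23 lower (0.0932%). Leaving out 1 of its libraries gave 11, 15 and 16 calls for ROSji7_ELstr replicates 1, 2 and 3, and 24, 239 and 126 calls for ROSji7_elji7 replicates 1, 2 and 3. Of the 695 genes called with pseudomajus ROS, 68.3% had a log2 fold change of the same sign with JI7 ROS, against 52.3% of all tested genes, and the median absolute change among the 695 was 0.41 there. Both comparisons called 17 genes, 8 of them higher in both, 3 lower in both and 6 in opposite directions. The 11 genes of shared direction are 1.58% of the calls with pseudomajus ROS and 23.4% of those with JI7 ROS.

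Of the 8 genes higher in both, 6 are in the set that followed the EL allele in all 21 libraries. The rule of that set already requires separation in both comparisons, so this overlap gives no support. The others of the 8 were AnMG0002964300, at 1684 ± 298 CPM in ROSji7_ELstr and 525 ± 122 CPM in ROSji7_elji7, and AnMG0208343200 (scaffold851 320567 to 325655, minus strand). AnMG0208343200 had 276, 255 and 335 CPM in ROSpse_ELstr, against 48.1, 39.9 and 29.1 CPM in ROSpse_elpse, and averaged 283 ± 32.0 CPM in ROSji7_ELstr and 62.1 ± 16.9 CPM in ROSji7_elji7 (SD, n = 3). Its log2 fold changes were 2.89 ± 0.38 with pseudomajus ROS and 2.19 ± 0.37 with JI7 ROS (SE; edgeR adjusted p 0.00226 and 0.0231). In the white genotype rosstr_ELstr, which also carries the striatum EL allele, it averaged 65.6 CPM. The JI7 calls of AnMG0002964300 and AnMG0208343200 ended without any one ROSji7_ELstr library or ROSji7_elji7 replicate 1, at an adjusted p of 0.0595 to 0.149 and of 0.0595 to 0.114.

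The 3 genes lower in both were AnMG0000407600 (scaffold53), AnMG0000443700 (scaffold195) and AnMG0001003100 (scaffold1195). AnMG0000407600 had 3.19, 2.80 and 2.63 CPM in ROSpse_ELstr, against 24.8, 41.1 and 35.5 CPM in ROSpse_elpse, and AnMG0000443700 had 2.03, 1.89 and 1.75 CPM in ROSpse_ELstr, against 12.4, 25.7 and 26.0 CPM in ROSpse_elpse. The eluta plants were close to each other and well below the magenta plants in both genes, with log2 fold changes of -3.56 ± 0.72 and -3.50 ± 0.60 (SE; edgeR adjusted p 0.0135 and 0.00524). In rosstr_ELstr they averaged 38.7 and 18.7 CPM, so they were not low in every genotype with the striatum EL allele. AnMG0000443700 shares its strand with an overlapping gene. AnMG0001003100 averaged 6.38 ± 0.768 CPM in ROSpse_ELstr and 16.8 ± 3.64 CPM in ROSpse_elpse (SD, n = 3; edgeR adjusted p 0.0474, and 0.0702 to 0.189 without any one of the 6 libraries). With JI7 ROS, the calls of AnMG0000407600, AnMG0000443700 and AnMG0001003100 ended without any one ROSji7_ELstr library or ROSji7_elji7 replicate 1, at an adjusted p of 0.0533 to 0.177, 0.110 to 0.224 and 0.0689 to 0.149. With pseudomajus ROS, AnMG0000407600 was lost without ROSpse_ELstr replicates 2 and 3 (0.0769 and 0.0560), and its direction turned, to 1.05 on the log2 scale and not called, in both fits that include family.

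The difference between both EL effects, tested as a contrast of contrasts, was called for 122 genes (0.494%), 64 with a more positive effect with pseudomajus ROS (0.259%) and 58 with a more negative one (0.235%). This difference cannot be assigned to the ROS allele, since the el allele and all 4 plant families differ with it. Of the 122 genes, 82 were also among the 695, 44 of them higher and 38 lower in ROSpse_ELstr. With JI7 ROS, 76 of the 82 had the opposite sign, while 52.3% of all tested genes had the same sign. Genes chosen for both a large effect and a large difference tend to opposite signs, so this count gives no support by itself. Sequences with many calls in the difference were scaffold1088 with 13, scaffold1195 with 12 and scaffold383 with 5. The count was 22 without ROSji7_ELstr replicate 2, 27 without ROSpse_ELstr replicate 2 and 44 without ROSpse_elpse replicate 2, and 57 to 165 without any other single library.

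The differences with the smallest adjusted p were opposite effects, a form that a choice by the difference favours. AnMG0004746500 (scaffold1088 652705 to 654015, plus strand) had 1.04, 1.66 and 1.97 CPM in ROSpse_ELstr, against 0.0938, 0.167 and 0.155 CPM in ROSpse_elpse, while with JI7 ROS it averaged 0.0290 ± 0.0280 CPM in ROSji7_ELstr and 3.82 ± 2.99 CPM in ROSji7_elji7 (SD, n = 3). The difference between the effects was 10.23 ± 1.0 on the log2 scale (SE; edgeR adjusted p 1.52e-04). Its size is imprecise, since 3 reads would be 0.0837 to 0.0987 CPM in a ROSji7_ELstr library and 0.0931 to 0.141 CPM in a ROSpse_elpse library. AnMG0000378900 averaged 0.123 ± 0.0367 CPM in ROSji7_ELstr and 1.35 ± 0.430 CPM in ROSji7_elji7, a difference of 7.50 ± 0.73 between the effects (SE; edgeR adjusted p 1.52e-04). For AnMG0001032000, with 9.05 ± 2.24 CPM in ROSji7_ELstr and 23.6 ± 1.75 CPM in ROSji7_elji7, it was 2.47 ± 0.26 (SE; edgeR adjusted p 2.30e-04). In each of these genes ROSpse_elpse and ROSji7_ELstr had the lowest means of the 7 genotypes. The JI7 effect of AnMG0000378900 alone was not called without ROSji7_ELstr replicate 1 or 3 (0.0980 and 0.0595).

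In the other direction, AnMG0004721500 (scaffold1088 152738 to 156027, plus strand) had 5.83, 6.54 and 6.39 CPM in ROSpse_ELstr, against 42.2, 26.1 and 29.6 CPM in ROSpse_elpse. With JI7 ROS the order was reversed, at 29.2 ± 6.98 CPM in ROSji7_ELstr and 9.73 ± 4.10 CPM in ROSji7_elji7 (SD, n = 3), and the effects differed by -3.97 ± 0.49 on the log2 scale (SE; edgeR adjusted p 9.42e-04). AnMG0000646800 (scaffold699 482048 to 483452, plus strand) had 14.7, 21.5 and 21.8 CPM in ROSpse_ELstr, against 35.6, 33.5 and 32.7 CPM in ROSpse_elpse, and averaged 19.7 ± 4.14 CPM in ROSji7_ELstr and 8.91 ± 1.68 CPM in ROSji7_elji7 (difference -1.95 ± 0.26, SE; edgeR adjusted p 0.00269). AnMG0003301400 (scaffold52 144114 to 148384, plus strand) had 4.48, 4.57 and 3.10 CPM in ROSpse_ELstr, against 13.5, 11.7 and 15.6 CPM in ROSpse_elpse, and 21.0 ± 1.01 CPM in ROSji7_ELstr and 11.2 ± 0.777 CPM in ROSji7_elji7 (difference -2.66 ± 0.40, SE; edgeR adjusted p 0.00851). The differences of these 6 genes passed the threshold without any one library of the 12. The call of AnMG0000646800 with pseudomajus ROS alone (edgeR adjusted p 0.0261) was lost without any one of the 6 libraries but ROSpse_ELstr replicate 3, at 0.0576 to 0.0900. AnMG0004721500 overlaps 2 other genes on the same strand.

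At the end of scaffold1195, AnMG0001025400 averaged 95.8 ± 4.47 CPM in ROSji7_ELstr and 188 ± 18.8 CPM in ROSji7_elji7 (SD, n = 3), opposite to its increase with pseudomajus ROS. The difference was 2.52 ± 0.30 on the log2 scale (SE; edgeR adjusted p 6.86e-04). On the same sequence, AnMG0001020400 had effects of the same sign that differed in size. For AnMG0001016100 no effect with JI7 ROS was detected, at 0.16 ± 0.15 on the log2 scale (SE, edgeR adjusted p 0.777). Its difference was 1.11 ± 0.22 on the log2 scale (SE, edgeR adjusted p 0.0333, and up to 0.0992 when single libraries were left out).

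**Figure D5:**
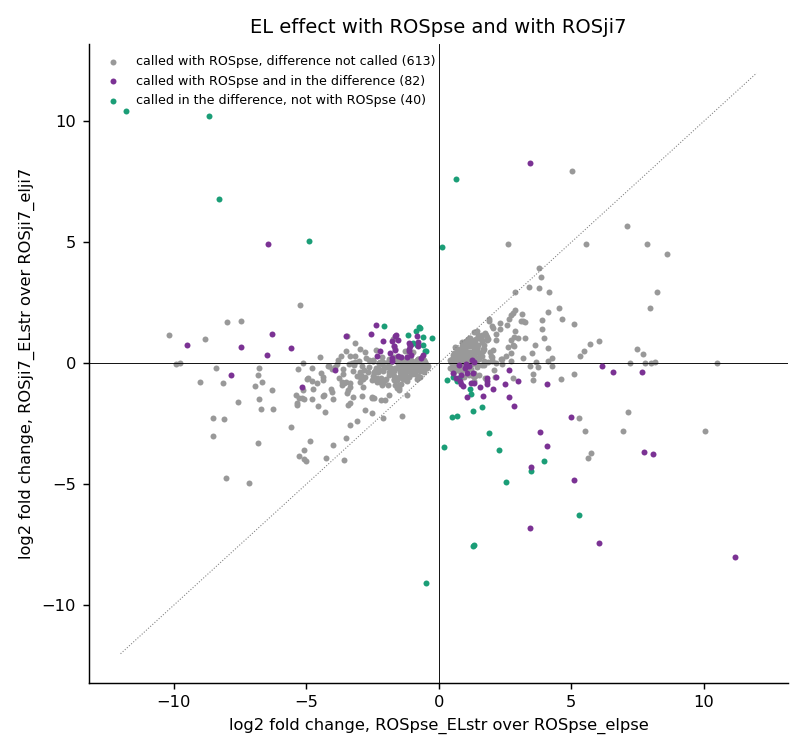
Log2 fold change of ROSpse_ELstr over ROSpse_elpse (x axis) against that of ROSji7_ELstr over ROSji7_elji7 (y axis) for the genes called in the first comparison or in the difference between both. The 82 genes called in both (purple) lie mostly at the upper left and lower right, where the signs are opposite, which their choice by the difference favours. The dotted line marks equal effects.

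Because genotype and family coincided, the rosdor_eldor plants of the same families were examined. This white genotype differs from both at ROS and EL, and 1 of its plants came from A174 and 1 from A181. Of the 695 called genes, 566 (81.4%) differed between the A174 and the A181 rosdor_eldor plant in the same direction as between ROSpse_ELstr and ROSpse_elpse, against 58.4% of all tested genes. The share was 81.8% among genes called higher and 81.1% among genes called lower. A difference of more than 2-fold in the same direction was found for 228 called genes (32.8%, against 17.3% of all tested genes), and one of more than 2-fold in the opposite direction for 20 (2.88%, against 9.96%). By size, it reached at least 0.5 times the gene's own log2 fold change, in the same direction, for 268 called genes (38.6%, against 48.2%). That bar is higher for called genes, whose median absolute log2 fold change was 1.53, against 0.29 over all tested genes. The rosdor_eldor plant of A181 has the smallest library of the series, 8926585 reads, and is of the low number series, while that of A174, with 29420437 reads, is of the middle series. With 1 plant of each family this is a description, with no test, and the part of depth and number series in it was not tested.

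Of the 6 largest increases, 4 differed in the same direction between these plants, as did 4 of the 6 largest decreases. AnMG0006820300 and AnMG0507276300 each had 3.05 CPM in the A174 rosdor_eldor plant and 0 in the A181 rosdor_eldor plant. AnMG0007687000 and AnMG0004185110 had 0.891 and 0.636 CPM in the A174 plant and 0 in the A181 plant, where 3 reads would be 0.379 CPM. These 4 genes were also at 0 in ROSpse_elpse, of family A181. All 8 of the highly expressed genes differed in the same direction, AnMG0002156000 by little, with 1080 CPM in the A174 plant and 1034 CPM in the A181 plant. AnMG0006051800 had 1989 CPM in the A174 plant and 649 CPM in the A181 plant. AnMG0008687600 had 1501 CPM in the A174 plant and 3075 CPM in the A181 plant, beside 1253 ± 30.8 CPM in ROSpse_ELstr and 3065 ± 44.8 CPM in ROSpse_elpse (SD, n = 3). AnMG0000407600 had 2.45 CPM in the A174 plant and 59.7 CPM in the A181 plant.

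In the genes named because they stayed called with plant family as a term, the genotypes were far apart and those plants were close. That fit rests on these same plants, so their closeness follows from the choice and gives no support. AnMG0807621100 (scaffold153 617906 to 618759, minus strand) had 4.17, 4.31 and 5.07 CPM in ROSpse_ELstr, against 0.0469, 0.0836 and 0.0621 CPM in ROSpse_elpse, and 3.18 and 3.54 CPM in the A174 and A181 rosdor_eldor plants. AnMG0000524600 (scaffold1047 110939 to 123645, minus strand) had 0.307, 0.302 and 0.182 CPM in ROSpse_ELstr, against 11.7, 14.6 and 11.6 CPM in ROSpse_elpse, and 0.382 and 0.506 CPM in those plants. With the striatum EL allele it averaged 18.3 CPM in ROSji7_ELstr but 0.469 CPM in rosstr_ELstr, so it did not follow the EL allele across the series. The genotypes were far apart in both genes, and AnMG0000524600 has same-strand genes that overlap it, with log2 fold changes of 6.04 ± 1.16 and -5.58 ± 0.79 (SE; edgeR adjusted p 0.0106 and 0.00275).

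A fit of 4 genotypes that includes plant family, and rests on these single plants, changed most calls: 91 genes were called and only AnMG0807621100 and AnMG0000524600 were among the 695, at log2 fold changes of 6.19 and -5.17 (edgeR adjusted p 0.00892 and 0.0436). In all 21 libraries that term left 13 calls, of which AnMG0001020400 was the 1 among the 695. AnMG0807621100 was no longer called without ROSpse_elpse replicate 2 in the fit without family (0.0527). With the family term AnMG0000140810 turned to -1.77 on the log2 scale and AnMG0000144700 to -0.41, neither called. For AnMG0000140810 this rests on 0.126 CPM in the A181 rosdor_eldor plant, where 3 reads would be 0.379 CPM, against 1.78 CPM in the A174 plant. AnMG0000407600, lower in ROSpse_ELstr without that term, turned to 1.05 in both family fits, not called. All other calls named here were lost under both family fits.

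Most tested genes, called or not, lay nearer ROSpse_ELstr in the other genotypes. The mean log2 CPM was nearer ROSpse_ELstr than ROSpse_elpse for 75.0% of called genes in ROSji7_ELstr (61.8% of all tested genes), 63.3% in rosstr_ELstr (59.4%), 60.6% in ROSji7_elji7 (57.0%), 65.2% in rosrec_elpse (59.9%) and 67.3% in rosdor_eldor (60.0%). The shares of called genes in ROSji7_elji7 and rosstr_ELstr were near those of all tested genes. Split by direction, genes called higher were nearer ROSpse_ELstr in ROSji7_elji7 for 53.5%, or 44.4% with means of CPM, and genes called lower were so in rosstr_ELstr for 56.9%, or 74.6% with means of CPM. All 5 other genotypes were nearer ROSpse_ELstr for 211 called genes (30.4%, against 23.5% of all tested genes) and nearer ROSpse_elpse for 21 (3.02%, against 8.95%). Genes for which both other ELstr genotypes were nearer ROSpse_ELstr and the other 3 nearer ROSpse_elpse numbered 7 (1.01%, against 1.35% of all tested genes).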

How the data were processed

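RNA of 21 corollas was sequenced as 50 bp single-end TruSeq libraries, per the labels' protocols. The submitters' processing notes name cutadapt 1.16, Salmon 0.9.1 and DESeq2, without their roles. Each library has a Salmon table, deposited by the authors, of estimated counts (expected counts) of 51926 transcripts, not normalised, and TPM, scaled by length and library; TPM was used only to compare levels between genes. A deposited placement file gives an exonerate alignment score for IGDBv1 transcripts on JICv1, and that deposited score served here to pick 1 placement per gene. Coordinates are 1-based on JICv1. The strand setting of counting was not given in the sources used here, so genes that overlap are uncertain, and near-identical gene copies were not analysed here. Neither sequences nor gene names were used here.

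Sums over transcript IDs gave 37234 genes, which were rounded. The 24674 genes that reached 0.5 CPM in 3 or more libraries were tested with edgeR 4.0.16 (R 4.3.3, limma 3.58.1; TMM, quasi-likelihood F test, 1 mean per genotype, all 21 libraries) and called where the p adjusted by Benjamini-Hochberg was under 0.05. CPM are TMM-scaled. The biological coefficient of variation was 0.400. Standard errors are the absolute log2 fold change over the square root of F. Totals ran from 8926585 to 41860890 reads. Where a group was at 0, folds are bounds against 3 reads over the group, and with 1 to 3 reads, ratios with 95% intervals; both cover counting error only. The rosdor_eldor plants and the means of other genotypes were compared on log2 CPM with a prior count of 2.

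Called genes whose groups did not overlap and whose higher group reached 1 CPM were ranked; those named had the 6 largest changes, 4 highest means or 3 smallest adjusted p in each direction. Also named were called genes of ros_assembly, genes called in both EL comparisons, in their difference (3 per direction) or with family as a term, and 3 calls on each of the 3 sequences with the highest share of calls (ties by unadjusted p). The genes described and these lists were chosen with earlier results of these data known; genes called in both comparisons beyond 4, and the set that followed EL in all libraries, were added after their values were seen. Alternatives were DESeq2 1.42.0, its size factors, no filter, number series or plant family as a term, fewer libraries, and each replicate left out. In simulated data with 100 genes changed 2-fold and 100 changed 4-fold, edgeR called 29% and 75% of them in the right direction, and 3 unchanged genes. DESeq2 called 43% and 89%, and 40 unchanged genes. A gene that was not called may therefore still differ.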

Additional observations from a re-analysis of the deposited data

Results flagged for a closer look

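The EL effect differed between pseudomajus and JI7 ROS, by a test of the difference itself, in 19 of the genes named. The el allele and all 4 plant families differ along with ROS in this contrast, so the difference cannot be assigned to the ROS allele. Differences are log2 effects with pseudomajus ROS minus with JI7 ROS, called with edgeR at an adjusted p under 0.05. More positive with pseudomajus ROS were AnMG0907197600 (19.17), AnMG0004746500 (10.23), AnMG0003286500 (9.94), AnMG0000378900 (7.50), AnMG0004749400 (6.69), AnMG0001025400 (2.52), AnMG0001032000 (2.47) and AnMG0001016100 (1.11). The value of AnMG0907197600 is no bound, since the gene was at 0 in ROSpse_elpse and in ROSji7_ELstr. That of AnMG0003286500 rests on 1 read in ROSpse_elpse, and that of AnMG0004746500 on few reads in ROSpse_elpse and ROSji7_ELstr. More negative with pseudomajus ROS were AnMG0207956200 (-10.28), AnMG0006818900 (-7.32), AnMG0000524600 (-6.21), AnMG0001020400 (-4.85), AnMG0001520400 (-4.19), AnMG0004721500 (-3.97), AnMG0706552610 (-2.77), AnMG0003301400 (-2.66), AnMG0000646800 (-1.95), AnMG0002429600 (-1.88) and AnMG0706551010 (-1.71).

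Of these, the differences of AnMG0001016100, AnMG0001520400, AnMG0207956200, AnMG0706551010, AnMG0706552610 and AnMG0907197600 ended without 1 of most of the 12 libraries, at adjusted p-values up to 0.0992, 0.125, 0.146, 0.131, 0.0825 and 0.0739. That of AnMG0006818900 ended without ROSpse_ELstr replicate 2 (0.0566). That of AnMG0002429600 ended without ROSji7_ELstr replicate 2 (0.0517) or ROSpse_ELstr replicate 2 (0.0505).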

How the results depend on the processing

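With pseudomajus ROS, the number of called genes moved to 1532 with DESeq2, 178 in the middle number series alone, 91 with plant family as a term among 4 genotypes and 13 with that term in all 21 libraries, the last chosen after seeing the data; the family fits left no more than 2 of the 695 calls. Leaving out 1 replicate gave 162 to 513 calls. DESeq2's size factors, the number series as a term, no filter on low counts and the 6 libraries alone gave 693, 931, 533 and 514 calls. With JI7 ROS, DESeq2 called 441 genes and leave-outs 11 to 239. For the difference of the EL effects, DESeq2 called 644 genes and leave-outs 22 to 165. At an adjusted p under 0.01 the calls on scaffold383, scaffold1195 and scaffold204 were 5, 7 and 0, and the share of calls of the same direction in the rosdor_eldor plants was 86.9%. With means of CPM, 68.3% of called genes were nearer ROSpse_ELstr in rosstr_ELstr. Direction turned with the family term, in both fits, for AnMG0000140810 (-1.77), AnMG0000144700 (-0.41 among 4 genotypes, -0.42 in all libraries) and AnMG0000407600 (1.05), none of them called. The turn of AnMG0000140810 rests on fewer than 3 reads in the A181 rosdor_eldor plant. The cause of these changes was not tested.

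Of 1275 repeat tests on the 58 named genes, 886 gave the same direction and call, 382 lost the call, 1 gained it and 6 reversed. All 54 named genes called with pseudomajus ROS lost that call in at least 1 alternative, and 10 of 19 named differences kept theirs in every one run. No paired analysis was possible because the labels give plant numbers that pair no plants across genotypes. Folds of genes with few reads in 1 genotype are imprecise, and 3 plants per genotype limit what could be called.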

Other observations

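AnMG0003286500 and AnMG0004749400, chosen after their values were seen, were called in opposite directions in both EL comparisons. AnMG0003286500 (scaffold383 222055 to 222901, minus strand) had 0.798, 0.491 and 0.547 CPM in ROSpse_ELstr, against 0.0469, 0 and 0 CPM in ROSpse_elpse. With JI7 ROS it averaged 0.0110 ± 0.0190 CPM in ROSji7_ELstr and 0.414 ± 0.0361 CPM in ROSji7_elji7 (SD, n = 3), the opposite order. AnMG0004749400 (scaffold1088 759110 to 760668, minus strand) had 3.19, 5.78 and 9.85 CPM in ROSpse_ELstr, against 0.375, 0.627 and 0.310 CPM in ROSpse_elpse, and averaged 0.613 ± 0.322 CPM in ROSji7_ELstr and 4.44 ± 1.23 CPM in ROSji7_elji7. In both genes the means of rosstr_ELstr, rosrec_elpse and rosdor_eldor were near the higher genotype of each pair, at 0.400 to 1.01 CPM for AnMG0003286500 and 3.12 to 5.12 CPM for AnMG0004749400.

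Over all 112 tested genes of scaffold1088, 86 had effects of opposite sign with pseudomajus and JI7 ROS, as had 24 of the 34 tested genes of scaffold383. On scaffold1195 most tested genes had the same sign, with 49 of 118 opposite. Of all tested genes, 52.3% had the same sign. Among called genes, 41.0% had more than 1 transcript, against 32.2% of all tested genes, and 15.3% overlapped a gene on the same strand, against 23.1%. Their median level was 18.6 CPM over the 6 libraries, against 13.0 CPM.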
